A study of Mus musculus with 4 samples.

Results

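Among the mouse mammary basal cells of this study, a small population stood out by UMIs (counted RNA molecules) of 6 genes: Krt16, Vcam1, Cd109, Ramp3, Arl4c and Il11. Its members were chosen from those values. Cells with at least 1000 UMIs were called basal where the summed UMIs of Krt5, Krt14, Krt17 and Acta2 reached 5 and exceeded 3 times those of Krt8, Krt18 and Krt19. The members were the top 5% of these basal cells by UMIs of the 6 genes per 10000 UMIs of the cell. They numbered 351 of 7028 basal cells, out of 18223 cell barcodes in the 4 libraries, and the other 6677 basal cells served for comparison.

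The study asked whether mammary stem cells need Tfap2c, the gene of the transcription factor AP-2γ, using conditional deletion. All 4 libraries came from 9-week-old FVB mice that were Tfap2c fl/fl and carried Krt5-CreERT2, so the floxed alleles were present in every group. The Krt5 promoter drives the Cre enzyme in basal cells, where it stays inactive until it meets 4-hydroxytamoxifen (4OHT). From week 4, 2 mice received 4OHT and 2 received its carrier corn oil, with 1 library per mouse, and the labels give the course as 5 daily injections in one place and as a week in another.

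Basal cells form the outer layer of the mammary ducts, rest on the basement membrane, and include the contractile myoepithelial cells that squeeze milk forward. Krt16 encodes a keratin that skin and other stratified epithelia make during wound repair, and Vcam1 encodes an adhesion receptor for integrins on leukocytes. Transcription factors of the NF-κB and AP-1 families switch on many such adhesion, cytokine and repair genes when epithelial cells are stressed, injured or exposed to cytokines.

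Tfap2c (chromosome 2, 172549593 to 172558622 on GRCm38) was read beside the labels. Its level cannot show whether the labels hold or the deletion took place, since its UMIs may come from outside the deleted part. Levels here are CPM, the UMIs of a gene scaled to the usual common total of UMIs in the summed cells. Over all basal cells Tfap2c had 389 and 285 CPM in the corn oil libraries against 285 and 325 in the 4OHT libraries. The ranges overlapped, and edgeR's quasi-likelihood test gave a log2 difference of -0.08 ± 0.25 (SE, adjusted p = 0.999, n = 2 per group), so groups are named below by their labels only. Total UMI counts per library lay between 17351950 and 22017878. Pairs of libraries shared between 18 and 36 cell barcodes, and 5 members carried a shared barcode. Members had fewer UMIs than other basal cells, with medians of 4147 and 2780 against 5184 and 3185 in the corn oil-labelled libraries and of 2938 and 2350 against 3939.5 and 2851 in the 4OHT-labelled libraries. Median mitochondrial shares lay between 1.42% and 2.19% in members and between 1.44% and 2.18% in other basal cells.

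The threshold fell within a continuous range of scores. The lowest member had 20.91 score-gene UMIs per 10000 and the highest cell outside had 20.87, so cells on either side of it had nearly the same score. The median member had 33.99 per 10000, from 9 UMIs, and the highest had 229.4. In contrast, 3952 of the other basal cells (59.2%) had no UMI of any of the 6 genes.

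The 6 genes were used to choose the members, so their values are given as a description with no test. Krt16 (chromosome 11, 100246091 to 100248902) stood at 1065 and 3143 CPM in members of corn oil libraries 1 and 2 and at 1559 and 1776 in members of 4OHT libraries 1 and 2. Other basal cells of the same libraries had 19.0, 47.0, 25.5 and 43.2. Vcam1 (chromosome 3, 116109949 to 116129688) stood at 1023, 391, 1525 and 677 in members and at 42.9, 33.5, 100 and 41.4 in other basal cells, in the same order of libraries. Krt16 was therefore highest in corn oil library 2, where Vcam1 was lowest.

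Cd109 (chromosome 9, 78615546 to 78716253) encodes a membrane-anchored protein that binds TGF-β and acts as a co-receptor. Members had 126 and 74.5 CPM in the corn oil-labelled pair and 261 and 284 in members of the 4OHT-labelled libraries. Ramp3 (chromosome 11, 6658521 to 6677475), an accessory protein that turns the calcitonin receptor-like receptor into an adrenomedullin receptor, stood at 196 and 158 in corn oil-labelled and at 46.8 and 303 in 4OHT-labelled members. Its level in 4OHT library 1 rested on 14 UMIs. Arl4c (chromosome 1, 88673125 to 88702221), a small GTPase of the ARF-like family, stood at 617, 265, 726 and 682 in members and between 79.1 and 96.3 in other basal cells.

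Il11 (chromosome 7, 4772373 to 4782859) encodes a secreted cytokine of the IL-6 family that signals through gp130 and is induced by TGF-β and AP-1 in many cell types. It stood at 126, 154, 107 and 295 in members and between 8.54 and 17.2 in other basal cells. Because AP-1 genes were also higher in members, the 250 bases before the downstream of the 2 Il11 start sites in RefSeq are shown, at chr7:4778142-4778391 on the minus strand of GRCm38.p6, with the AP-1 motif TGANTCA in capitals.
Il11: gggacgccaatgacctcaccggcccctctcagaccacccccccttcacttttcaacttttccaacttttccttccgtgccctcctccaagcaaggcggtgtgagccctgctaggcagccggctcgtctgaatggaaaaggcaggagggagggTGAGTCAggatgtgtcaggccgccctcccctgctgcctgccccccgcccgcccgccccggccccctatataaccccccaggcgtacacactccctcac
The match lies 98 to 92 bases before the start. Either strand of this motif was found in 6.75% of the 32851 RefSeq windows of 250 bases, so a match alone is a description. Of the 6 score genes, RefSeq windows were matched for Arl4c, Il11 and Ramp3, and this was the only match among their 4 windows.

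**Figure D1:**
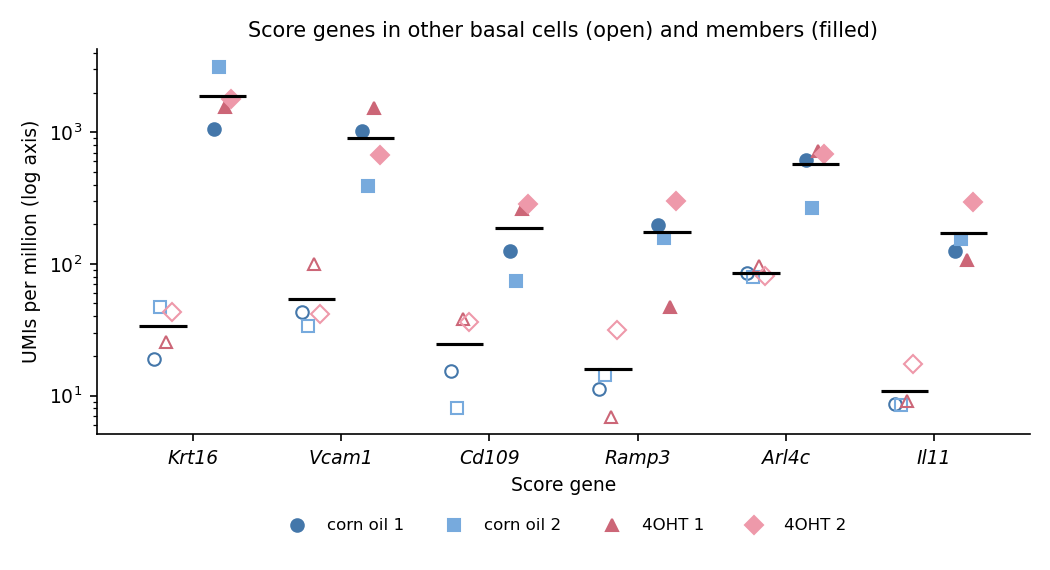
Level in CPM (log axis) of the 6 score genes in each of the 4 libraries, for other basal cells (open symbols) and members (filled symbols), with bars at the mean of 4 libraries. The Krt16 mean was 1886 in members and 33.7 in other basal cells, and no gene's members overlapped with its other cells, since these genes chose the cells.

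Each score gene was found in a part of the members and was rare in luminal cells. Krt16 had a UMI in 69.8% of members, 6.99% of other basal cells and 1.27% of the 6797 cells gated as luminal, whose median depth of 4632 UMIs was above the 2771 of members. Vcam1 had a UMI in 57.8%, 11.7% and 1.06% of these cells, and Arl4c in 61.8%, 22.0% and 8.52%. Cd109, Ramp3 and Il11 had a UMI in 34.5%, 23.1% and 23.6% of members and in at most 0.53% of luminal cells. After thinning each cell to 2000 UMIs, the Krt16 shares were 67.6%, 5.04% and 0.514%.

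Most members carried several of the 6 transcripts. At least 2 of the 6 were seen in 293 of 351 members (83.5%) and at least 3 in 202 (57.5%). In other basal cells the shares were 11.5% and 2.52%, although the rule itself separates the groups on this measure. Krt16 led the score in 156 members, Vcam1 in 83 and Arl4c in 51. Ramp3, Il11 and Cd109 led in 17, 10 and 9, and 25 had a tie. The makeup differed between libraries, since Krt16 led in 55 of 74 members of corn oil library 2 and Vcam1 in 40 of 97 members of 4OHT library 1.

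Each of the 6 genes was also left out in turn and read in the top 5% of cells by the other 5. The 6 were chosen with earlier results of these data known, so this reading is no independent sign that they go together. The left-out gene was higher than in the remaining basal cells in 4 of 4 libraries for each of the 6 genes. Krt16 was higher by log2 values of 4.01 and 3.24 in the corn oil-labelled libraries and of 2.85 and 2.97 in the 4OHT-labelled libraries. Il11 was higher by 3.73, 2.95, 3.17 and 2.80, and Cd109 by 2.56, 2.64, 2.51 and 1.87. The weakest values were 0.78 for Arl4c in corn oil library 2 and 0.86 for Ramp3 in 4OHT library 1, which rested on 5 UMIs. These values describe the cells of each library and carry no test.

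Markers of other cell types were read in members list by list. Of 11 leukocyte markers 9 were at 0, Ptprc among them, and the list summed to between 5.31 and 26.8 CPM in members against 10.3 to 22.9 in other basal cells. Of 7 pericyte markers 6 were at 0, and the sum was at most 2.65. Fibroblast markers summed to between 0 and 37.3 in members and between 16.1 and 80.5 in other basal cells, with 5 of 9 at 0.

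Endothelial cells also make Vcam1, so their markers were read separately. Their 10 markers summed to 7.01 and 116 in members of the corn oil-labelled libraries and to 16.7 and 101 in members of the 4OHT-labelled libraries. Other basal cells of the same libraries had 15.4, 50.1, 11 and 63.1, so the sums of corn oil library 2 and of both 4OHT-labelled libraries were higher in members. Of the 69 endothelial UMIs in members, 47 were Pecam1, seen in 10.5% of members and 9.00% of other basal cells, while Tek and Flt1 were at 0. Cldn5 and Plvap each came from 1 member, with 8 and 7 UMIs.

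Skin is another source of Krt16. Of 14 skin keratinocyte markers 8 were at 0 in members, including Lor and Flg2, and the list summed to between 73.6 and 335 in members against 109 to 430 in other basal cells. Schwann cell markers summed to between 120 and 186 in members and 74.4 to 91.1 in others, but 141 of their 163 UMIs were Sox10, which mammary basal cells also use. The 10 luminal progenitor markers summed to between 1233 and 3078 in members and 1320 to 2918 in other basal cells, 1053 of the 1932 member UMIs being Lcn2, and Kit was at 0. Of 8 of these markers tested 2 rose and 1 fell in members, beside 8.38% and 9.56% of all tested genes. Plet1, a surface protein of luminal progenitors, stood at 308, 834, 609 and 549 in members against 187, 283, 123 and 248 in others, with no overlap (log2 1.63 ± 0.17), and had a UMI in 49.6% of members and 26.4% of others. The milk protein gene Csn3 passed at 0.61 ± 0.23 (adjusted p = 0.044) but was higher in members in 2 libraries and lower in 2, and Lcn2 fell (-0.53 ± 0.15). The part of these markers in the results was not tested. Hormone-sensing luminal markers summed to between 6.69 and 47.8 against 27.0 to 38.8, and adipocyte markers to between 0 and 47.8 against 2.39 to 37.4, with Adipoq at 0. Doublet candidates numbered 0, 2, 0 and 1 members by library. When cells with an endothelial, fibroblast, pericyte, leukocyte or Schwann marker were left out, 4235 basal cells remained, 212 of them members. All 25 genes named below as rising or falling most then kept their direction and passed. Cells with luminal, skin keratinocyte or adipocyte markers stayed in, and Sox10 was among the markers used.

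Members also differed in the genes of the basal gate, again as a description. Krt14 stood at 10800 and 14880 CPM in members of the corn oil-labelled pair and at 10750 and 15070 in the 4OHT-labelled libraries, with other basal cells between 3768 and 5744. Acta2, the smooth muscle actin of myoepithelial cells, stood at 1535, 2114, 1157 and 1500 in members and between 4022 and 6420 in other basal cells. Krt17 averaged 6484 ± 1766 (SD, n = 4) in members and 3540 ± 704 in others. Krt5 averaged 279 ± 32.3 in members and 367 ± 12.4 in others. The luminal keratins of the gate went both ways. Krt8 averaged 853 ± 254 in members and 642 ± 121 in others, and Krt18 960 ± 328 and 686 ± 141, each higher in members in 3 of 4 libraries. Krt19 averaged 47.0 ± 20.1 and 105 ± 12.7 and was lower in members in 4 of 4.

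Members took a larger share of basal cells in the 4OHT-labelled libraries than in the corn oil-labelled ones, but 2 libraries per group cannot reach a small p. They were 35 of 1496 basal cells (2.34%, exact Clopper-Pearson 95% interval 1.64% to 3.24%) in corn oil library 1 and 74 of 1933 (3.83%, 3.02% to 4.78%) in corn oil library 2. They were 97 of 1421 (6.83%, 5.57% to 8.26%) in 4OHT library 1 and 145 of 2178 (6.66%, 5.65% to 7.79%) in 4OHT library 2. The intervals cover counting error only. Both 4OHT-labelled libraries were above both corn oil-labelled ones, and the share averaged 6.74% ± 0.119 (SD, n = 2) against 3.08% ± 1.05.

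The difference was 3.66 percentage points, a ratio of 2.19, with a two-sided exact permutation p of 0.3333, the smallest that 2 against 2 libraries allow. Members were chosen per UMI of the cell, and depth differed between libraries. With each cell thinned to 2000 UMIs the shares were 3.51% and 4.43% against 6.92% and 5.31%, a difference of 2.15 percentage points, and the groups still did not overlap. Without Krt16 in the score the difference was 5.49 percentage points.

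**Figure D2:**
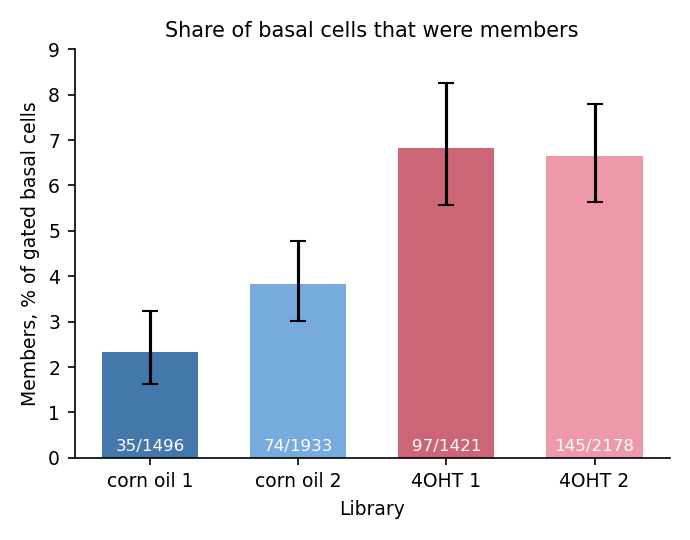
Members as a percentage of gated basal cells in each library, with exact 95% binomial intervals as error bars and the counts at the foot of each bar. The corn oil-labelled libraries stand at 2.34% and 3.83% and the 4OHT-labelled libraries at 6.83% and 6.66%.

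Members differed from other basal cells of the same library in many genes that the rule did not use. They had more RNA of the chemokine Cxcl2, of Ptgs2, of the AP-1 subunit Fosl1, of the polyamine enzyme Odc1 and of the stress-responsive regulator Ifrd1. They had less of Espn, Igfbp2 and Igfbp4, and less of genes for contraction, hypoxia, protein folding and interferon response. UMIs were summed per library and group of cells and compared with edgeR's quasi-likelihood test, with each library as its own control. Of 8899 genes tested, 746 rose (8.38%) and 851 fell (9.56%) at an adjusted p under 0.05. At an unadjusted p under 0.05 there were 28.9% of the genes. The groups of 4 did not overlap for 1989 genes (22.4%). The median log2 difference over all tested genes was -0.22, or -0.39 when sums were scaled by library size without TMM factors, so each change is read against that shift. With that scaling 571 genes rose and 1272 fell, so the part of calls that were higher went from 46.7% to 31.0%, and it was 61.1% with DESeq2 (626 and 398 genes) and 33.5% without the filter on low counts. Without 4OHT library 1 the counts were 483 and 490, and without 4OHT library 2 they were 461 and 495.

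Ifrd1 (chromosome 12, 40201567 to 40248504), a transcriptional co-regulator induced by growth factors and stress, had the smallest p of all genes. It stood at 2726 and 2142 CPM in members of the corn oil-labelled pair and at 4074 and 4016 in members of the 4OHT-labelled libraries. Other basal cells had 480.5, 553, 837.5 and 711. The groups did not overlap, the log2 difference was 2.47 ± 0.15 (SE, adjusted p = 5.8e-54, n = 4 libraries), and a UMI was present in 92.9% of members and 65% of others. Odc1 (chromosome 12, 17544794 to 17551505), which makes ornithine decarboxylase for polyamine synthesis in growing cells, stood at 960, 1192, 990 and 1768 in members and 148, 218.5, 228 and 576 in others. Its log2 difference was 2.37 ± 0.16 (adjusted p = 9.7e-46). Tcim (chromosome 8, 24437180 to 24438984), a small regulator of transcription and immune responses, stood at 1191, 973, 702 and 1224 against 152, 241, 173 and 321. For both genes every member value was above every other value.

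Ptgs2, Cxcl2 and Csf3 rose, Cxcl2 from few cells. Ptgs2 (chromosome 1, 150100031 to 150108227) encodes cyclooxygenase-2, the inducible enzyme of prostaglandin synthesis. It stood at 91.1 and 69.8 in corn oil-labelled and at 184 and 199 in 4OHT-labelled members, against 14.6, 11.9, 34.9 and 32.5 in other cells, and the groups did not overlap (log2 2.70 ± 0.25, adjusted p = 2.6e-24). Cxcl2 (chromosome 5, 90903871 to 90905938), a chemokine that attracts neutrophils, stood at 126, 23.3, 438 and 143 in members and at 5.54, 10.9, 39.0 and 6.60 in others. Its log2 difference of 3.75 ± 0.26 (adjusted p = 4.5e-44) came from 25 members with a UMI, numbering 2, 2, 14 and 7 by library. In the same order, 1 member held 17 of 18, 4 of 5, 37 of 131 and 34 of 54 of its UMIs. The log2 ratios by library, with 1 CPM added, were 4.28, 1.03, 3.46 and 4.25, a spread wider than the SE. The member value of corn oil library 2 lay below the other cells of 4OHT library 1. Csf3 (chromosome 11, 98701263 to 98703629), the granulocyte colony-stimulating factor, had a log2 difference of 2.68 ± 0.27 (adjusted p = 4.9e-21), with a UMI in 13.1% of members and 4.39% of others. It stood at 56.1, 32.6, 204 and 204 in members and at 12.45, 9.80, 37.8 and 23.8 in others, so its groups overlapped. The corn oil-labelled values rested on 8 and 7 UMIs, from 4 members in each library.

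Aqp3, Lypd3, Fermt1 and Emp3 also rose. Aqp3 (chromosome 4, 41092722 to 41098183), a water and glycerol channel of basal keratinocytes, stood at 112, 377, 127 and 122 in members against 30.4, 53.3, 14.0 and 39.1 in others. It was highest in corn oil library 2, as Krt16 was, and its log2 difference was 2.58 ± 0.22 (adjusted p = 3.6e-28). Lypd3 (chromosome 7, 24636550 to 24641118), a surface protein of migrating keratinocytes, stood at 91.1, 88.5, 124 and 122 against at most 22.9. Fermt1, the kindlin that activates integrins in epithelia, had a log2 difference of 2.21 ± 0.21, and Emp3, a membrane protein of the PMP22 family, one of 2.65 ± 0.26. Each of these genes was higher in members in 4 of 4 libraries with no overlap.

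The other increases were in regulators and less studied genes. Fosl1 (chromosome 19, 5447547 to 5455946) encodes FRA-1, an AP-1 subunit linked to cell migration. It stood at 70.1, 144, 127 and 212 in members and at 22.1, 37.6, 25.9 and 28.2 in others (log2 2.47 ± 0.24, adjusted p = 1.7e-22). Pde10a, which breaks down cyclic nucleotides, and Medag, a gene first described in adipocyte formation, had log2 differences of 2.38 ± 0.28 and 2.39 ± 0.26 without overlap. The long noncoding RNA Gm32219 had a log2 difference of 2.83 ± 0.29, with a UMI in 21.9% of members and 4.45% of others, and its groups overlapped. H2-Q7, a class Ib MHC gene, had one of 2.67 ± 0.26, but it has close copies between which the counting could split reads, so its value is uncertain.

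Among genes that averaged at least 50 CPM and went 1 way in 4 of 4 libraries, Espn and Ndufa4l2 fell most. Espn (chromosome 4, 152120331 to 152152371), which encodes the actin-bundling protein espin, had no UMI in members of corn oil library 1 and 23.3, 13.4 and 13.3 CPM in members of the other libraries. Other basal cells had 234, 333, 98.4 and 258, so the groups were far apart (log2 -3.85 ± 0.31, adjusted p = 1.4e-32). Ndufa4l2, a mitochondrial protein induced in hypoxia, stood between 4.66 and 14.0 in members and between 58.9 and 138 in others, from 8 member UMIs in all. P4ha2, a collagen prolyl hydroxylase, had a log2 difference of -2.35 ± 0.30, and Creld2, a protein of the endoplasmic reticulum, one of -2.33 ± 0.25.

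The insulin-like growth factor binding proteins Igfbp2 and Igfbp4 were both lower. Igfbp2 (chromosome 1, 72824503 to 72852474) stood at 98.1 and 158 in corn oil-labelled and at 30.1 and 114 in 4OHT-labelled members, against 545, 890, 323 and 705 in other cells. A UMI was present in 17.1% of members and 49.5% of others (log2 -2.52 ± 0.20, adjusted p = 2.4e-33). Igfbp4 (chromosome 11, 99041244 to 99054392) stood at 28.0, 79.2, 16.7 and 47.8 against 294, 271, 161 and 251. Neither gene overlapped between groups. Hacd1, an enzyme of very long-chain fatty acid synthesis, and Slc48a1, a heme transporter, had log2 differences of -2.39 ± 0.31 and -2.34 ± 0.32.

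**Figure D3:**
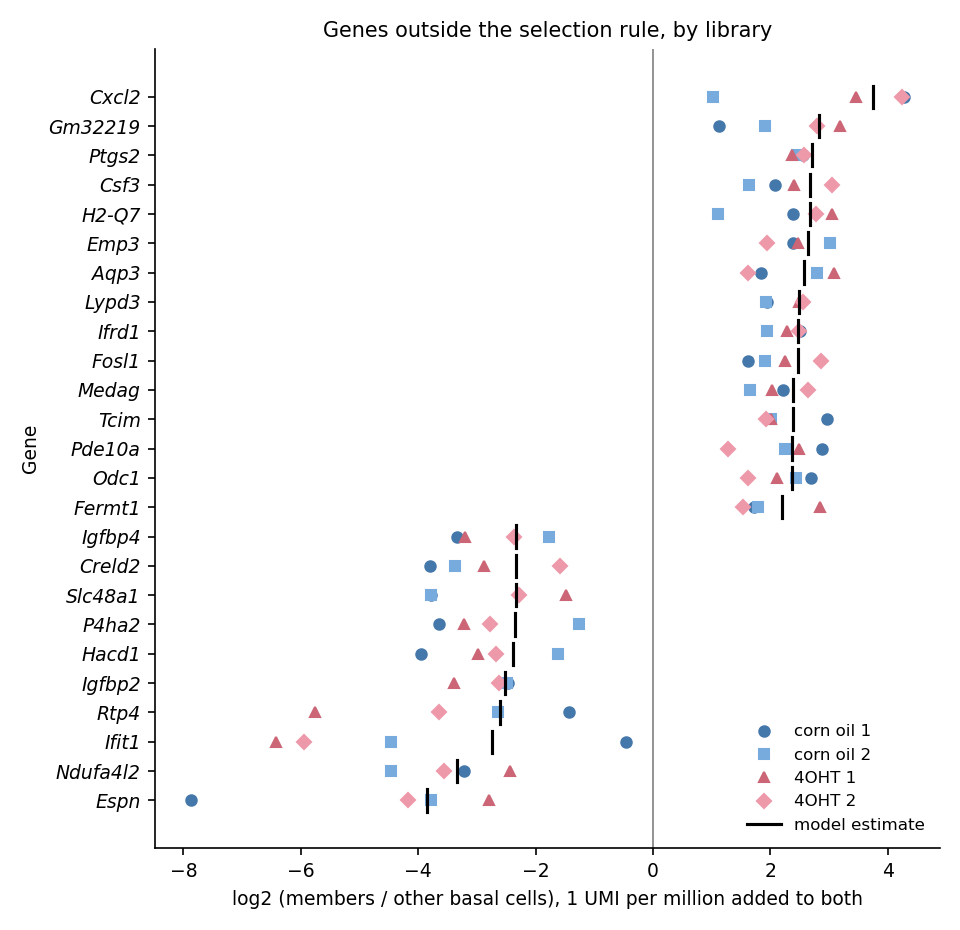
Log2 ratio of members to other basal cells in each of the 4 libraries (symbols, 1 CPM added to both) and the model estimate (bars) for the 15 genes that rose and the 10 that fell most. All symbols lie on the side of their estimate, and the farthest is Espn in corn oil library 1, where members had no UMI.

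Many NF-κB genes were higher in members. This list and those below were chosen with earlier results of these data known, so their counts are no independent sign of a pathway. Of 25 listed pathway members and targets, 19 were tested, and 11 rose and 0 fell, with a median log2 difference of 1.16 beside -0.22 for all genes. Over all tested genes 8.38% rose and 9.56% fell, and the counts of this and the following lists are to be read beside those shares. Nfkbia, the inhibitor that NF-κB itself induces, stood at 2151, 1532, 3248 and 3206 in members and at 385, 630, 786 and 871 in others (log2 2.08 ± 0.15, adjusted p = 1.1e-38). The subunits Nfkb1, Relb and Rel rose by 1.22 ± 0.22, 1.18 ± 0.23 and 1.60 ± 0.41, each higher in 4 of 4 libraries. The chemokine Cxcl16 rose by 0.96 ± 0.21. Cxcl1 rose by 1.74 ± 0.20 over the libraries, but it was higher in 3 of 4, and Tnfaip3 was higher in 3 of 4 and Nfkbie in 2 of 4. The subunit Rela, with 0.48 ± 0.27, did not pass.

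The promoters of 3 of these genes show the κB motif that NF-κB binds. Each is given as the 250 bases before the RefSeq start on GRCm38.p6, with matches in capitals: Cxcl2 at chr5:90903649-90903898 on the plus strand, Nfkbia at chr12:55492648-55492897 on the minus strand and Tnfaip3 at chr10:19015411-19015660 on the minus strand.
Cxcl2: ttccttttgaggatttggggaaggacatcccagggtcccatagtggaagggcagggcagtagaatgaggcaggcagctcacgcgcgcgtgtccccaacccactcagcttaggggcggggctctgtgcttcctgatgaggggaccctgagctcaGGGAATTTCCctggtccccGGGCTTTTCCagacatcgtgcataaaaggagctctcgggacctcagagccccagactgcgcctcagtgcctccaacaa
Nfkbia: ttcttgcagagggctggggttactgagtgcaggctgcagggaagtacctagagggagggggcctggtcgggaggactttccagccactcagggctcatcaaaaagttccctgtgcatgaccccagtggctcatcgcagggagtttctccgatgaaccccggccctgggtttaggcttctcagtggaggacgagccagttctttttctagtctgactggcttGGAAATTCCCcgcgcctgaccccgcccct
Tnfaip3: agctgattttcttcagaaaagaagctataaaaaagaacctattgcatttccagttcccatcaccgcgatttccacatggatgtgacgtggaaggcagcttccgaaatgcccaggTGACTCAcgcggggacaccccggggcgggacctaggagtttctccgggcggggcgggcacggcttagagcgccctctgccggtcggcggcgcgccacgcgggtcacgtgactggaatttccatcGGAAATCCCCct
The capitals mark the κB motif (GGG, any 2 bases, then TTTCC) on either strand and, as the upstream match of Tnfaip3, the AP-1 motif TGANTCA. No matches overlap. The κB motif was in 5 of the 8 windows matched for 7 of the 11 NF-κB genes that rose, in 1.41% of all windows and in 1 of the 18 windows matched for 12 of the 15 genes that rose most. The list was written from known NF-κB targets, so the first of these shares is no finding about the cells.

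TGF-β pathway genes and their targets were also higher. Of 20 tested, 11 rose and 0 fell, with a median log2 difference of 0.85. Tgfbi, a secreted matrix protein induced by TGF-β, had the largest value (4.01 ± 0.52) and was seen in 5.13% of members and 0.509% of other basal cells. The ligand Tgfb1 stood at 84.1, 144, 93.7 and 104 in members and between 35.5 and 58.0 in others (log2 1.39 ± 0.24, adjusted p = 1.5e-07). Id3, an inhibitor of basic helix-loop-helix factors that BMP signals induce, stood at 196, 163, 114 and 263 against 34.2, 55.3, 71.5 and 99.3. The feedback inhibitors Smad7, Skil and Pmepa1 rose by 0.92 ± 0.21, 0.93 ± 0.21 and 0.99 ± 0.19, and Smad7 and Skil were lower in corn oil library 2. Tgfb2 and Bmp2 rose by 1.56 ± 0.28 and 2.59 ± 0.62, each higher in 3 of 4 libraries. The receptors Tgfbr1, Tgfbr2 and Tgfbr3 did not pass. Without 4OHT library 2, 7 of the 20 rose, and with a stricter basal gate 5 of 15 tested.

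Immediate early genes were higher in number, but not uniformly so. Of 19 tested, 11 rose and 1, Egr1, fell, with a median of 0.50. Fosl2 and Jun, both AP-1 subunits, rose by 1.31 ± 0.17 and 0.93 ± 0.15 without overlap, and Klf6, a zinc finger factor induced by injury, by 1.29 ± 0.16. Jun stood at 1247, 871, 1174 and 1147 in members and at 554.5, 679, 608.5 and 749 in others. Fos, with 0.27 ± 0.17, and Fosb, with 0.45 ± 0.44, did not pass. Junb, Atf3, Dusp1, Btg2, Nr4a1 and Myc passed while 1 library of the 4 went the other way, and Dusp1 ranged from 194 to 1064 in members. Dissociation of tissue induces many of these genes, and its part in their levels was not tested.

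Growth factor and wound genes gave smaller groups. Of 8 ligands of the EGF receptor family, 3 were tested and all 3 rose. Hbegf, a membrane-bound ligand shed at wound edges, stood at 84.1, 60.5, 26.8 and 55.7 in members and between 13.9 and 15.5 in others (log2 2.03 ± 0.32). Tgfa and Nrg1 rose by 1.28 ± 0.33 and 0.88 ± 0.30, and without 4OHT library 2 only 1 of the 3 ligands passed. Of 13 tested genes of the wound edge list 5 rose and 0 fell, with a median of 0.48. F3, which encodes tissue factor and starts coagulation, rose by 1.65 ± 0.19, Plaur, the urokinase receptor, by 1.39 ± 0.25, Inhba, the activin A subunit, by 2.20 ± 0.50, and Itga3, an integrin for laminin, by 0.84 ± 0.24. The laminin genes Lama3 and Lamb3 did not pass, and without corn oil library 2 the list had 3 genes that rose. Of 12 tested feedback genes of MAP kinase signalling 3 rose (Spry2, Phlda1 and Fosl1) and 0 fell, while Dusp6 had a value of 0.52 ± 0.20 (adjusted p = 0.054).

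Ligands, receptors and relatives of the score genes were read from lists of their own. Among 14 tested genes of the IL-6 family and its signalling, 3 rose and 3 fell, with a median of -0.19, close to the -0.22 of all genes. Lif, a related cytokine, rose by 2.38 ± 0.41, from 14.0, 14.0, 30.1 and 63.7 CPM in members against 5.85 to 9.76 in others. The IL-11 receptor Il11ra1 fell, with -1.45 ± 0.49 from 9 member UMIs, and the feedback inhibitor Socs3 fell without overlap (-1.60 ± 0.21). Stat3 rose by 0.55 ± 0.18 and Bcl3 by 1.03 ± 0.25, and Il6st, which encodes gp130, had a value of -0.04 ± 0.27. Without corn oil library 2, 4OHT library 1 or 4OHT library 2, 1 gene of the list fell, and without the last of these 1 rose. Of 4 tested genes of the calcitonin gene-related peptide and adrenomedullin system 0 passed by edgeR's quasi-likelihood test, with Adm, the peptide ligand, at 0.35 ± 0.15 (adjusted p = 0.081). At an unadjusted p under 0.05 there were 2, Adm and Crcp.

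Of 5 tested adhesion partners of VCAM and ICAM only Icam1, a leukocyte adhesion receptor, passed. It stood at 315, 349, 385 and 292 in members and at 152, 186, 258 and 150 in others (log2 1.03 ± 0.17). Of 9 tested ARF and ARF-like GTPase genes 3 rose and 0 fell. They were Arl4a and Arl4d, the closest relatives of Arl4c, by 2.12 ± 0.19 and 1.62 ± 0.24, and Arf6, which acts in membrane recycling, by 1.33 ± 0.16. In each of these 3 genes every member value was above every other value.

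Contractile genes were lower. Of 14 tested, 11 fell and 0 rose, with a median log2 difference of -1.12, and all 14 values were below those of the other cells in 4 of 4 libraries. Myh11, the smooth muscle myosin heavy chain, stood at 77.1, 79.2, 43.5 and 42.5 in members and at 213, 231, 253 and 183 in others (log2 -1.77 ± 0.23, adjusted p = 7.7e-13). Oxtr, the oxytocin receptor that triggers milk ejection, fell by 1.60 on the log2 scale, Myl9 by 1.55, Actg2 by 1.54 and Tagln by 1.14. Cnn1, Lmod1 and Smtn did not pass, with values of -0.39, -0.43 and -0.36.

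Other genes of basal identity went both ways. Of 16 tested, 4 rose and 4 fell, with a median of -0.10 beside -0.22 for all genes. Trp63, the master regulator of basal epithelium, stood at 231, 135, 120 and 106 in members and at 79.9, 67.4, 61.6 and 68.6 in others (log2 1.18 ± 0.21, adjusted p = 7.2e-07). Tspan8, a tetraspanin, rose by 2.03 ± 0.27 and Snai2 by 0.75 ± 0.23. Tspan8 had a UMI in 16.0% of members, 5.53% of other basal cells and 23.1% of luminal cells, so here it was not particular to basal cells. Krt15, Id4 and Sparc fell by 1.19, 0.75 and 0.83 on the log2 scale, beside Igfbp2. Cxcl14 passed at 0.41 ± 0.15 with 2 libraries on each side. Of 10 tested genes proposed as mammary stem cell markers Procr, Sox9, Sox10 and Cd44 rose and Tcf4 fell. Cd44, the hyaluronan receptor, rose by 1.47 ± 0.19 without overlap, and Procr, the protein C receptor, by 1.33 ± 0.40 from 30 member UMIs, higher in 3 of 4 libraries.

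Most tested genes of hypoxia and of the unfolded protein response fell, and heat shock and antioxidant genes went both ways. Of 14 tested hypoxia and glycolysis genes 9 fell and 0 rose, with a median of -0.82. Ero1l, the oxidase of the endoplasmic reticulum, stood at 589, 927, 428 and 629 in members and at 2917, 1999, 1499 and 1944 in others (log2 -1.54 ± 0.16, adjusted p = 6.0e-20). Egln3, a sensor of oxygen, and Bnip3, a mitophagy receptor, fell by 1.44 and 1.34, while the lactate dehydrogenase Ldha had a value of 0.03 ± 0.15. Of 16 tested genes of the unfolded protein response 9 fell and 1 rose, with a median of -0.69. The chaperone Hsp90b1 fell by 1.25 and Ddit3, which encodes CHOP, by 1.39, both without overlap. Atf4, the factor upstream of it, rose by 0.64 ± 0.15. Hmox1, the heme oxygenase, had a value of -1.29 ± 0.17, with a UMI in 18.5% of members and 42.1% of others. By library, 1 member held 153 of 162, 69 of 122, 2 of 21 and 119 of 136 of its member UMIs. Of 14 heat shock and antioxidant genes 3 rose and 6 fell, with the small heat shock gene Hspb1 at 0.78 ± 0.14. Without either 4OHT library 3 rose and 3 fell, and with DESeq2 3 rose and 1 fell.

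Interferon response genes gave the lowest median of the lists. Of 13 tested, 10 fell and 0 rose, with a median of -2.25. Isg15, a ubiquitin-like protein that interferon induces, stood at 98.1 and 83.8 in members of the corn oil-labelled pair and at 6.69 and 10.6 in the 4OHT-labelled ones, against 223, 372, 120 and 88.1 in others (log2 -2.11 ± 0.25). In members of the corn oil-labelled pair 13 of 14 and 14 of 18 of its UMIs came from 1 cell of each library. Rtp4 fell by 2.60 from 12 member UMIs. Ifit1 fell by 2.75 and had no UMI in 4OHT-labelled members. Its groups overlapped, and 15 of its 20 member UMIs came from 1 cell. Ifit1 has close copies and its counts are uncertain in that respect. Ifit2 and Rsad2 did not pass.

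**Figure D4:**
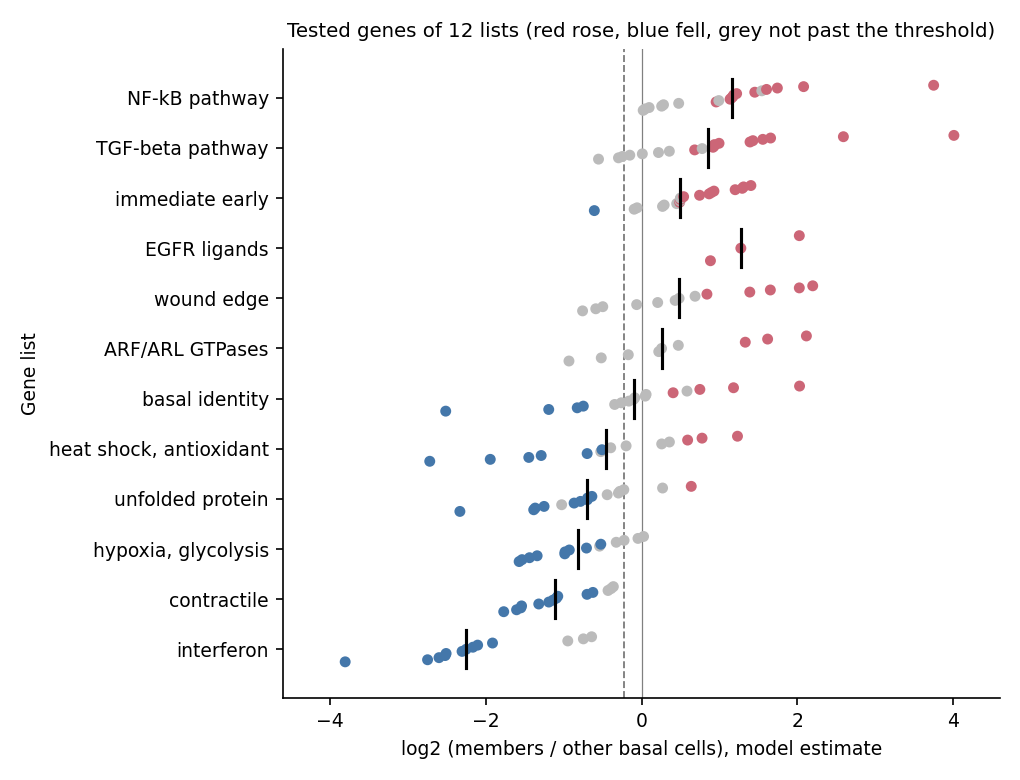
Model log2 difference between members and other basal cells for each tested gene of 12 lists, with genes past the threshold in red (rose) or blue (fell), list medians as black bars and the median of all tested genes as a dashed line. The NF-κB median stands at 1.16 and the interferon median at -2.25, and 1 TGF-β gene, Smad6, lies beyond the left edge, with all members at 0.

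Of 12 tested YAP targets 1, Ptpn14, rose and 3 fell, with a median of -0.36 beside -0.22 for all genes. Over all tested genes 8.38% rose and 9.56% fell, so 1 gene that rose is no result about this list. Ankrd1, a muscle-type ankyrin repeat protein, fell by 3.36 from 4 member UMIs, and Ctgf, with -0.19 ± 0.16, did not pass. Of 16 proliferation genes 3 had enough counts for the test. Hmgb2 rose by 0.95 ± 0.16, Stmn1 fell with 1 member UMI left, and Pcna did not pass at -0.51 ± 0.39. No reading of cycling was made from so few counts.

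In means over the 4 libraries, changes in the named genes were not confined to the members. The genes were named because members by this score differed in them. Differences in the bins of members were thus fixed in advance, and the bins are a description. Basal cells were placed in 6 bins, from a score of 0 to the top 2.5%, and UMIs were summed per bin and library. Ifrd1 averaged 458 ± 78.9 (SD, n = 4) CPM at a score of 0, 1240 ± 333 in the cells between the top 20% and 10%, 1933 ± 307 between the top 10% and 5%, and 4129 ± 1100 in the top 2.5%. Espn averaged 310 ± 127 at a score of 0, 62.3 ± 20.1, 41.3 ± 23.2 and 9.34 ± 6.65 in the same bins. By these means, all 15 genes that rose and all 10 that fell were past the level of score 0 in the cells just outside the members. Single libraries went the other way. Ifit1 stood there at 227 against 80.1 at a score of 0 in corn oil library 1, and at 121.5 against 68.9 in 4OHT library 1. Rtp4 stood at 75.6 against 72.8 and at 50.2 against 34.6 in these libraries, and Csf3 at 8.66 against 8.67 in corn oil library 2. Ordered means over all 6 bins were seen in 12 of the 15 and in 5 of the 10. The means of Ifit1 and Rtp4 first rose, from 155 and 71.5 at a score of 0 to 253 and 141 in the next bin. The top bin held only 10 cells in corn oil library 1, and without that bin 14 of the 15 and all 10 still went further between the top 10% and the members below the top 2.5%.

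**Figure D5:**
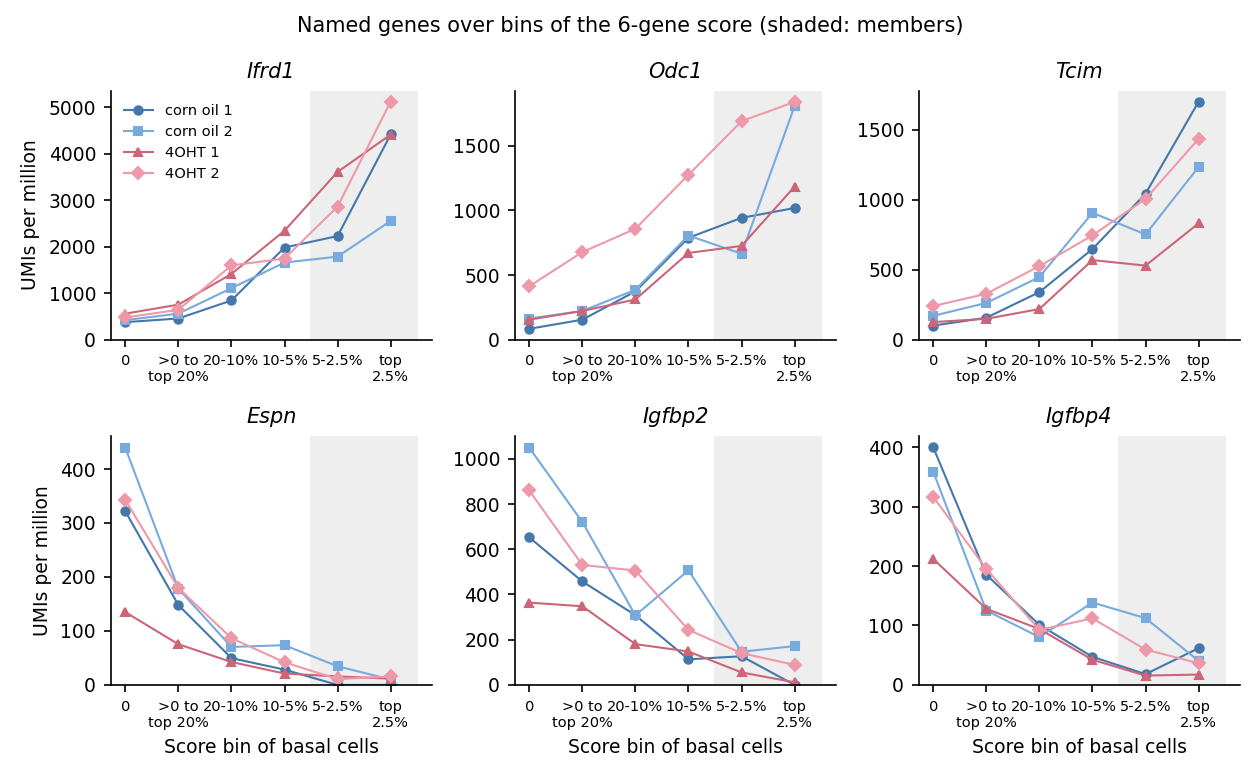
CPM of 3 genes that rose and 3 that fell, by bin of the 6-gene score in each library, with the bins of members shaded. Ifrd1, Odc1 and Tcim climb and Espn, Igfbp2 and Igfbp4 decline over the bins, starting outside the shaded area.

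The named genes were also read in members led by Krt16 and in members led by Vcam1. Both subsets are part of the members that named the genes, so the counts are a description. In the 156 Krt16-led cells 13 of the 15 genes that rose were above the other basal cells in 4 of 4 libraries, and all 10 that fell were below. In the 83 Vcam1-led cells the counts were 8 of 15 and 8 of 10, and all 25 genes kept their side in at least 3 libraries. The Vcam1-led cells of corn oil library 2 numbered 7, which limits these values. Ptgs2 averaged 159 ± 95.1 CPM (SD, n = 4) in Krt16-led and 48.3 ± 39.4 in Vcam1-led cells, and Csf3 179 ± 137 and 62.8 ± 45.7. Gm32219 averaged 61.8 ± 45.7 and 154 ± 91.4. No test was made between the subsets.

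Other basal states overlapped with the members to different degrees, counted without a test. Cells in the top 5% for the immediate early genes Fos, Fosb, Jun, Junb, Egr1, Ier2 and Atf3 made up 8.26% of members and 4.82% of other basal cells, but 15.9% of the members of 4OHT library 2 and at most 4.12% in each other library. Cells in the top 5% for Edn2, Adm and Crispld2 made up 5.13% of members and 4.99% of others. Cells in the top 5% for interferon genes made up 0.570% and 5.23%, and those in the top 5% for chaperones of the endoplasmic reticulum 0.285% and 5.24%. A Procr UMI was present in 19 members, 5.41% of them, and in 2.40% of other basal cells.

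Within members, the main fit of 4OHT-labelled against corn oil-labelled libraries had no tested gene past the threshold, with the 13 genes of the rule left out. Of 2519 genes tested with edgeR's quasi-likelihood test, 0 (0%) had an adjusted p under 0.05 and 108 (4.29%) an unadjusted p under 0.05. DESeq2 called 1 higher and 1 lower. With the replicate number as a factor in the fit 37 were called, and without the filter on low counts 18. Leaving out 1 library gave 2 to 13 calls, the most without 4OHT library 1. The smallest p values were those of Cx3cr1 (log2 -3.44 ± 0.60), Isg15 (-3.36 ± 0.62) and Cxcl1 (3.51 ± 0.66), each with an adjusted p of 0.542 (n = 2 per group). The corn oil-labelled Isg15 values came mostly from 1 cell in each library, with 13 of 14 and 14 of 18 UMIs. Tfap2c stood at 364 and 247 in corn oil-labelled members and at 234 and 295 in 4OHT-labelled members (log2 -0.26 ± 0.34, adjusted p = 0.993). In simulated counts of this size with a fixed dispersion of 0.05, the test recovered 66% of 200 genes changed by a log2 of 2. That dispersion was not matched to the spread between these mice, so the share is not the power in these data.

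The difference between members and other basal cells was itself compared between the groups. Of 10017 genes tested for this interaction 3 (0.0299%) passed, 1 higher (0.00998%) and 2 lower (0.02%), and 4.14% had an unadjusted p under 0.05. Cxcl1 (chromosome 5, 90891241 to 90893115), a neutrophil chemokine, stood at 98.1 and 32.6 in corn oil-labelled members and at 1130 and 374 in 4OHT-labelled members, against 55.9, 106, 131 and 96.6 in other basal cells. Its member difference was larger in the 4OHT-labelled libraries by a log2 of 2.98 ± 0.38 (edgeR's quasi-likelihood test, adjusted p = 5.9e-11, n = 2 per group). By library the log2 ratios of members to other cells, with 1 CPM added, were 0.80 and -1.66 in the corn oil-labelled pair. They were 3.10 and 1.94 in the 4OHT-labelled pair. Libraries of the same group thus differed by more than the SE, and the small p rests on 2 mice per group. A Cxcl1 UMI was seen in 42 and 36 members of the 4OHT-labelled and in 6 and 4 of the corn oil-labelled libraries. Cx3cr1 and Ccl11 rested on few cells, 8 and 1 members with a UMI. All 30 Cx3cr1 UMIs of corn oil library 1 came from 1 member, and all 69 member UMIs of Ccl11 came from 1 member of the same library. Without that library the Ccl11 value was 1.47 and 30 genes passed, and without corn oil library 2, 20 passed. The Cx3cr1 call was lost without 4OHT library 1 (adjusted p = 0.303), and a filter at a mean of 50 CPM left 0 genes past the threshold.

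Over all basal cells, without any threshold on the score, the 6 genes were compared between the groups in a fit of 10788 genes. By edgeR's quasi-likelihood test 0 (0%) of these passed and 465 (4.31%) had an unadjusted p under 0.05. DESeq2 called 37, and 167 were called with the replicate number as a factor in the fit. Leaving out 1 library gave 17 to 127 calls, the most without 4OHT library 1, and without the filter on low counts there were 93. Cd109 stood at 17.3 and 10.2 in the corn oil-labelled pair and at 49.5 and 50.2 in the 4OHT-labelled ones. These groups did not overlap, with a log2 difference of 1.91 ± 0.31 and an adjusted p of 0.604, and the value passed with DESeq2. Vcam1 stood at 60.2 and 45.3 against 172 and 77.7 (log2 1.26 ± 0.35, adjusted p = 0.999). Arl4c stood at 93.9 and 85.2 against 128 and 115 (0.49 ± 0.21), and Il11 at 10.8 and 13.3 against 14.0 and 33.1 (1.05 ± 0.48). Krt16 and Ramp3 overlapped between the groups, with values of 0.43 ± 0.62 and 0.85 ± 0.73. Krt16 was at -0.27 without corn oil library 1 and at 1.86 without corn oil library 2, and Ramp3 at 1.63 without 4OHT library 1 and at -0.95 without 4OHT library 2. Il11 was at 1.60 without 4OHT library 1. In basal cells as a whole, fewer cells with a transcript and less of it per cell cannot be told apart by these sums.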

How the data were processed

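Single-cell RNA libraries of mouse mammary glands, 1 mouse each, were sequenced. The deposited files hold UMI counts per gene and cell produced by the authors; the submitters' processing notes name bcl2fastq, Cell Ranger 3.0.1 and mm10. The values are whole numbers that were not normalized. Counts covered 31053 genes in 18223 barcodes, of which 391 were under 1000 UMIs. Library totals ran from 17351950 to 22017878 counts. Every deposited column was assigned to a sample.

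Counts were summed per library for members and other basal cells and compared in R 4.3.3 with edgeR 4.0.16 (filterByExpr, TMM, quasi-likelihood test, Benjamini-Hochberg adjustment, threshold 0.05). Both sums of a library came from the same mouse, so library was a block there. Levels are CPM (from unscaled totals), while log2 differences use TMM. The 13 genes of the rule were left out of the tests of members. Named genes were the 15 that rose and the 10 that fell most, among genes that passed, averaged 50 CPM or more and went 1 way in 4 of 4 libraries. From each list up to 4 of the largest changes were named by rule, and further list genes after their values were seen. Some list genes are not reported here by name. The members and lists were chosen with earlier results of these data known. Doublet candidates came from scanpy 1.11.5 (Scrublet) and stayed in, apart from 1 alternative. DESeq2 1.42.0 was an alternative. Shares were compared by an exact permutation test. Gene positions are from GENCODE M21 (GRCm38) and promoters from RefSeq (GRCm38.p6). The tests were also run on simulated data with log2 changes of 2 and a fixed dispersion of 0.05, not matched to these libraries. There the member comparison recovered 95.5% of 200 changed genes among 8633, with 8 false calls. The treatment comparison within members recovered 66% among 2542, with 2 false calls.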

Additional observations from a re-analysis of the deposited data

Results flagged for a closer look

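The member difference of 3 genes was not the same in the 4OHT-labelled and the corn oil-labelled libraries by the interaction test of edgeR's quasi-likelihood fit. For Cxcl1 it was larger in the 4OHT-labelled libraries by a log2 of 2.98 ± 0.38 (adjusted p = 5.9e-11, n = 2 per group), but libraries of the same group differed by more than this SE. Cxcl1 was higher in members than in other cells in both 4OHT-labelled libraries and in corn oil library 1. For Cx3cr1 the interaction was -3.69 (adjusted p = 1.2e-06), from 8 members with a UMI. For Ccl11 it was -11.7 (adjusted p = 0.000212), from 1 member of corn oil library 1, and members of the other libraries had no UMI.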

How the results depend on the processing

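The 25 named genes kept their direction and passed under every alternative in which they were tested. The share difference was 2.53 percentage points with the top 2.5%, 6.66 with the top 10%, 2.15 after thinning and 5.49 without Krt16. Genes higher in members numbered 496 without a filter and 407 with a mean of at least 50 CPM. They numbered 329 in the top 2.5%, 466 after thinning and 428 with a stricter gate. Without cells with endothelial, fibroblast, pericyte, leukocyte or Schwann markers they numbered 417, and leaving out a library 461 to 697. Genes lower numbered 445 with that filter, 398 with DESeq2 and 490 to 728 leaving out a library. Scaling without TMM, added after seeing the data, gave 571 and 1272. Within members, calls between the labelled groups were 6 higher and 12 lower without a filter, 1 and 1 with DESeq2, and 0 to 7 and 2 to 7 leaving out a library. Interaction calls were 0 and 0 with the filter at 50, 6 lower with RLE factors, and 1 to 7 higher and 2 to 23 lower leaving out a library. Over all basal cells Vcam1 was 1.24 and Cd109 1.89 without a filter, and Cd109 was 1.93 with DESeq2. Leaving out a library gave -0.27 to 1.86 for Krt16, -0.95 to 1.63 for Ramp3, 0.17 to 1.60 for Il11 and 1.66 to 2.28 for Cd109 (2.02 without 4OHT library 1). The interaction ranged from -14.9 to 1.47 for Ccl11, the sign changing without corn oil library 1, and from -0.11 to 0.067 for Tfap2c, changing without 4OHT library 1. The cause of these shifts was not tested.

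Without the library as a block 457 genes were higher and 473 lower in members. The labels do not state whether libraries of the same replicate number belong together across the groups. Deviations of same-numbered libraries had a correlation of 0.734 over all basal cells and 0.364 in members, from 2 pairs. A pairing was not tested. With a block on the replicate number, 10 genes were higher and 27 lower within members, and 6 interactions were lower. Over all basal cells 167 genes were then called, with Vcam1 at 1.20 and Cd109 at 1.92. The share difference was 4.49 points in number 1 and 2.83 in number 2. With 2 mice per group and as few as 35 members in a library, genes of low count could not be tested.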
